A study of Mus musculus with 8 samples.

Results

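The TAM receptors are the receptor kinases Tyro3, Axl and Mertk, and their ligands are Gas6 and Pros1, which encodes protein S. These 5 genes were taken by symbol from a table of 51810 genes, and all 5 were found. They were followed through microglia, the resident macrophages of the brain, from wild-type mice of 2 ages, 4 months (young) and 21 months (aged). White matter, dissected as corpus callosum, and grey matter gave 2 libraries each at each age, so 8 libraries formed 4 groups. Myelin was removed on Percoll, CD11b-positive cells, which take in microglia along with further myeloid cells, were held on magnetic columns, and RNA with poly(A) tails was sequenced. The region label of the grey matter samples also reads corpus callosum, so white and grey were told apart by titles and by the label for tissue. No label ties a library to its own animal, so all tests measure the spread between libraries, which may be technical.

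Gas6 and protein S bind phosphatidylserine, a lipid that dying cells and some membrane debris expose, and link it to a TAM receptor on the phagocyte. Gas6 can activate all the TAM receptors, whereas protein S activates Tyro3 and Mertk and is not regarded as an activating ligand of Axl. In macrophages Mertk is typically carried by resting cells and Axl by cells under inflammatory stimulation, and both are known in microglia as receptors for the uptake of dying cells and as brakes on cytokine signalling.

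Library totals ran from 3273258 to 6315782 counts, and levels are given as CPM, a gene's counts scaled to a common library size by TMM. All 12 homeostatic microglia markers, which include P2ry12 and Tmem119, were above 0 in every library, and their sum was 13624 to 20959 CPM in 7 libraries. The first young white matter library stood apart. Its homeostatic sum was 3485 CPM, and its 12 oligodendrocyte markers, genes of myelin-forming cells, summed to 65384 CPM against 201.5 to 823.3 CPM in the others. For the TAM genes, the edgeR differences between regions and between ages that rest on this library are given with and without it. The group means of Axl, the permutation tests and the shares of genes without overlap include it. In bulk RNA, fewer cells of a type and less RNA per cell cannot be told apart.

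Among the receptors, Mertk was the most abundant and the steadiest in the 7 libraries other than the first of young white matter, and Axl moved. Mertk, the receptor of resting phagocytes, stood at 122.5 and 781.9 CPM in young white matter, 655.8 and 880.7 in young grey matter, 662.3 and 716.7 in aged white matter, and 713.8 and 745.5 in aged grey matter. Outside the first young white matter library these levels spanned 1.34-fold, and the groups overlapped in every comparison. Axl, the receptor of stimulated phagocytes, stood at 12.4 and 80.8 CPM in young white matter, 29.8 and 56.7 in young grey matter, 387.2 and 277.4 in aged white matter, and 65.4 and 63.1 in aged grey matter. Both aged white matter libraries were above all other libraries, and over the 7 libraries Axl spanned 13-fold. The group means of Axl were 332.3 ± 77.6 CPM (SD, n = 2) in aged white matter, 64.2 ± 1.61 in aged grey matter, 46.6 ± 48.4 in young white matter and 43.3 ± 19.0 in young grey matter. Of the 3 lower groups, aged grey matter lay above young grey matter without overlap, and young white matter overlapped both.

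**Figure D1:**
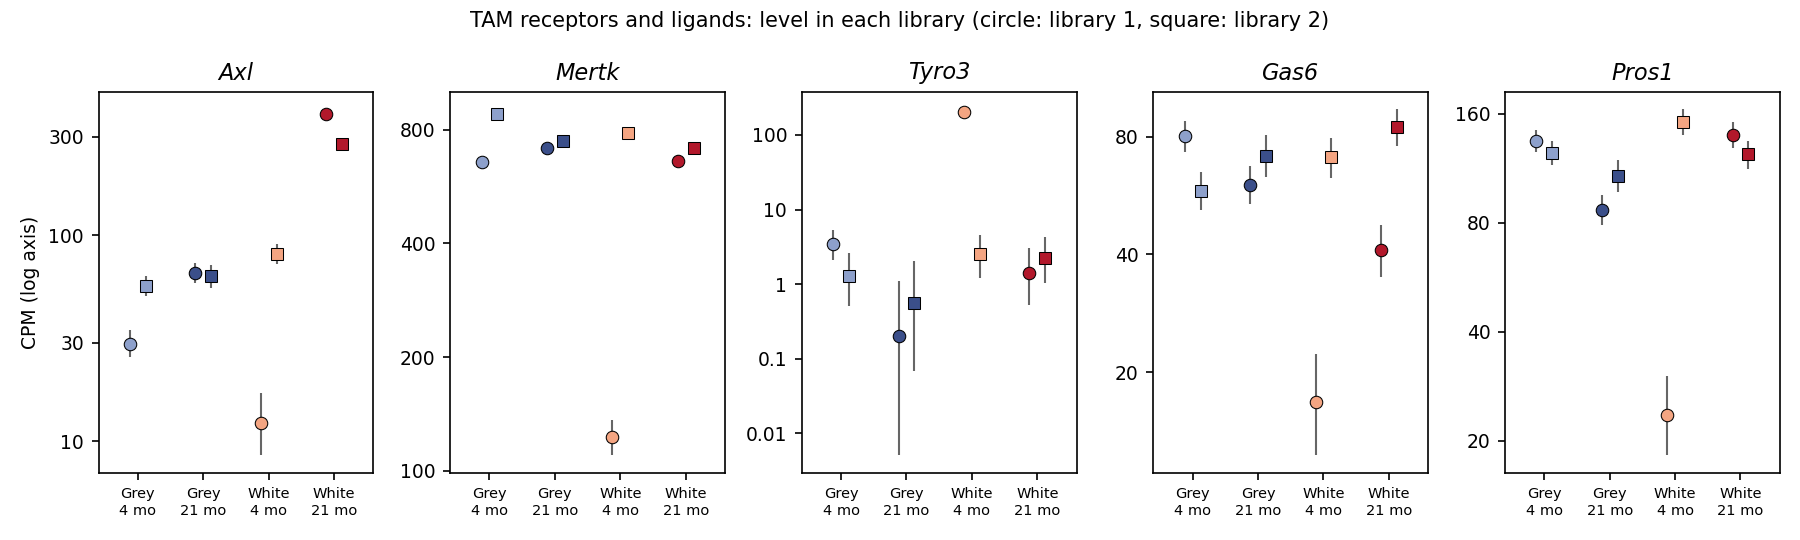
Level of each TAM gene in CPM (log axis, a separate range for each gene) in the 8 libraries by region and age, with circles for the first and squares for the second library of a group and bars for 95% Poisson intervals of the count. Axl is highest in both aged white matter libraries, at 387.2 and 277.4 CPM, and Mertk lies between 655.8 and 880.7 CPM in all libraries but the first of young white matter.

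Per kilobase of exon, the scale on which genes can be compared with each other, Mertk stood at 151.2 to 203.1 CPM over those 7 libraries and Axl at 5.93 to 76.9. Pros1 stood at 21.3 to 37.1 CPM per kilobase and Gas6 at 16.1 to 33.1. Tyro3 lay far below the rest, at 0.032 to 0.563 CPM per kilobase. The highest Axl level was thus still below the lowest Mertk level on this scale.

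Axl was next set against Mertk within each library, since such a ratio does not depend on how libraries are scaled. For every 100 Mertk counts there were 10.09 and 10.33 Axl counts in young white matter, 4.55 and 6.44 in young grey matter, 58.5 and 38.7 in aged white matter, and 9.16 and 8.46 in aged grey matter. The 4 groups did not overlap, with young grey matter lowest and aged white matter highest. The first young white matter library, whose Axl and Mertk levels were both far below those of its partner, had nearly the same ratio as that partner. The gap between the highest group and the rest was larger than counting error. Axl made up 36.9% (95% Clopper-Pearson interval 35.5% to 38.3%) and 27.9% (26.5% to 29.3%) of the Axl and Mertk counts in the aged white matter libraries. In aged grey matter these shares were 8.39% (7.54% to 9.30%) and 7.80% (6.85% to 8.84%). In young white matter they were 9.16% (6.43% to 12.6%) and 9.36% (8.41% to 10.4%), so these intervals overlapped those of aged grey matter. The young grey matter shares of 4.35% (3.73% to 5.04%) and 6.05% (5.41% to 6.73%) differed from each other by more than counting error, which is all that these intervals cover.

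**Figure D2:**
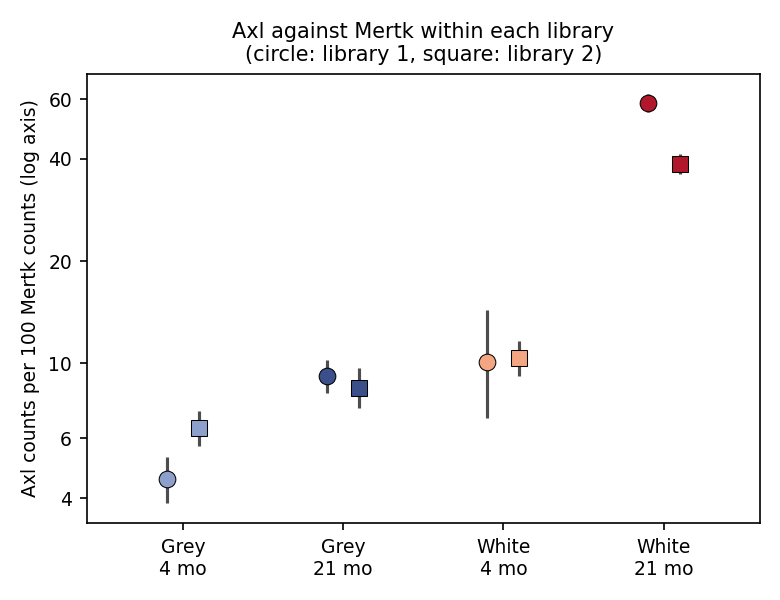
Axl counts per 100 Mertk counts (log axis) in each of the 8 libraries, by region and age, with circles for the first and squares for the second library of a group. The aged white matter libraries stand at 58.5 and 38.7, and the other 6 lie between 4.55 and 10.33.

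The log2 ratio of Axl to Mertk was higher in white than in grey matter by 2.43 at 21 months, which is 5.40-fold, and by 0.92 at 4 months, which is 1.90-fold. It was higher at 21 than at 4 months by 2.21 in white matter, which is 4.63-fold, and by 0.70 in grey matter, which is 1.63-fold. Each two-sided exact permutation test gave p = 0.333, the smallest that 2 libraries against 2 allow. Over both ages, with region labels exchanged within age, the white minus grey difference was 1.68, or 3.20-fold, with an exact permutation p of 0.0556, again the smallest possible. The age change in white matter exceeded that in grey matter by 1.51 on the log2 scale, for which no exact test was made. Groups that do not overlap in their count over the Mertk count, in the higher direction, were common among all tested genes. They made up 26.3% for region at 21 months, 25.4% for region at 4 months and 23.8% for age in grey matter, but 6.89% for age in white matter. For age in white matter, however, the share of genes not overlapping in CPM was 19.8% in the higher direction. The Mertk level in the first young white matter library was only 122.5 CPM, and the part of that library in the 6.89% was not tested. A lack of overlap by itself therefore says little about Axl in these comparisons.

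The ligands moved less against Mertk. Gas6 stood at 13.6 and 9.05 counts per 100 Mertk counts in young white matter, 12.2 and 6.60 in young grey matter, 6.18 and 11.8 in aged white matter, and 8.44 and 9.58 in aged grey matter, with overlapping groups throughout. Pros1 stood at 19.3 and 19.4, 20.5 and 14.2, 21.1 and 17.2, and 12.2 and 14.5 in the same order of groups. Pros1 in aged white matter was above both aged grey matter libraries, by 0.52 on the log2 scale, a lack of overlap that 26.3% of genes shared in that direction.

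Axl was also set against the 12 homeostatic markers as a group. It gave 3.55 and 5.69 counts per 1000 homeostatic counts in young white matter, 1.42 and 3.30 in young grey matter, 28.4 and 20.1 in aged white matter, and 4.76 and 3.83 in aged grey matter. Both aged white matter libraries were above all others on this scale too, which uses the same Axl counts. The share of all genes that separate so on this scale was not computed. Mertk on the same scale ran from 31.3 to 55.1 over all 8 libraries, with no group apart from the rest.

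White and grey matter were compared at 21 months with edgeR's quasi-likelihood test, adjusted by Benjamini-Hochberg over all genes tested. Axl was higher in white matter by 2.37 ± 0.80 (SE) on the log2 scale in the fit of all 8 libraries, which gave an adjusted p of 0.99998 and an unadjusted p of 0.0197. That edgeR fit called 0 of 16237 genes, or 0%, in this and in each of the other comparisons. At an unadjusted p under 0.05 it held 381 genes here and 119 to 1446 in the others, and DESeq2 called 54 here and 0 to 515 in the others. DESeq2 on all 8 libraries gave Axl 2.36 with an adjusted p of 0.393. Without the first young white matter library, edgeR gave 2.37 ± 0.34 for Axl (adjusted p = 0.0761) while calling 0.109% of genes in either direction. With the 4 aged libraries alone, Axl rose by 2.36 ± 0.20 (adjusted p = 0.000457), where 0.985% of 14717 genes were called higher, and its fold change ranked at the 99.3 percentile of all genes. DESeq2 without the first young white matter library also called Axl, at 2.36 ± 0.37 (adjusted p = 8.0e-08), with 0.687% of genes called higher. On all 8 libraries, edgeR with no filter on low counts (adjusted p = 0.00372) and limma voom with sample quality weights (adjusted p = 0.00705) also called Axl. The former called 82 of 32865 genes higher and the latter 72 of 16237. The estimate was 2.35 to 2.38 in these fits, and the call depended on the fit. In CPM, 20.9% of all tested genes had white matter libraries above both grey matter libraries, as Axl, Pros1 and Tyro3 had.

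The other members did not pass in this comparison in any of these fits. In the fit of aged libraries alone, Mertk differed by -0.09 ± 0.158 (adjusted p = 0.913). Gas6 differed by -0.08 (adjusted p = 0.968). Pros1 differed by 0.43 ± 0.17 (adjusted p = 0.368). Tyro3 had too few counts to be tested there, so 4 of the 5 members passed that filter, whereas all 5 passed the filters of the fits of 8 and of 7 libraries.

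Some marker sums of other cell types also separated these 4 libraries. In white against grey matter at 21 months, neutrophil markers summed to 997.6 and 556.7 against 2997 and 2705 CPM, monocyte markers to 248.6 and 207.1 against 733.5 and 514.1, and border-associated macrophage markers to 370.9 and 503.1 against 789.3 and 884.5. These were lower where Axl was higher. Lyve1 and Cd209f of the 12 macrophage markers were at 0 in the first aged white matter library, and Ly6g of the 12 neutrophil markers in the second. Astrocyte markers were also lower, at 204.4 and 364.8 against 410.6 and 437.4 CPM, with none of 10 at 0. Oligodendrocyte markers were at 342.5 and 329.3 against 231.0 and 328.8 CPM, and fibroblast markers were at 22.2 and 23.8 against 19.4 and 13.4 CPM, with none at 0 in either list. Ependymal and choroid plexus markers, led by Ttr, summed to 308.9 and 9310 CPM in aged white matter and 363.1 and 262.9 in aged grey matter, so the second aged white matter library stood apart. Axl was lower and Gas6 higher in that library than in its partner. The part of these cells in the Axl and Gas6 values was not tested.

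**Figure D3:**
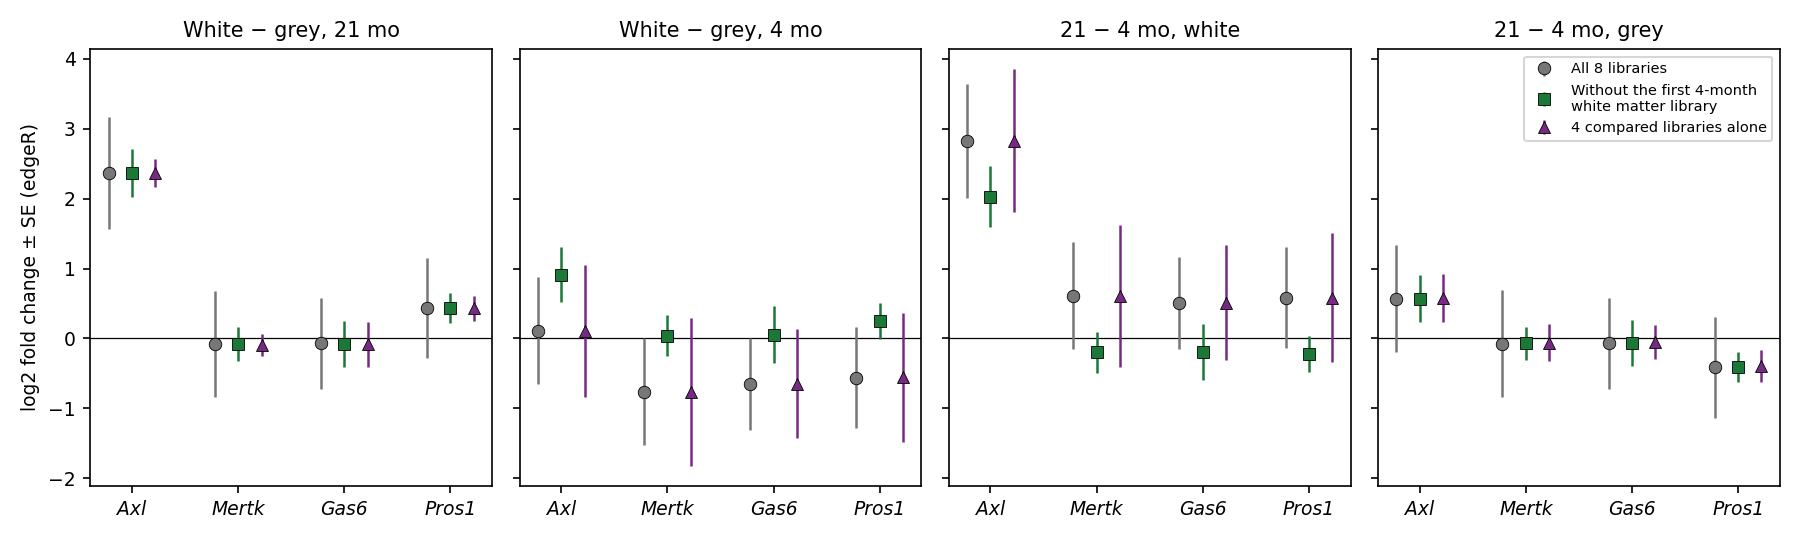
Log2 fold change ± SE from edgeR for Axl, Mertk, Gas6 and Pros1 in the 4 comparisons, one panel each, fitted on all 8 libraries, without the first young white matter library, and on the compared libraries alone. At 21 months Axl stays between 2.36 and 2.37 in white against grey matter while its SE falls from 0.80 to 0.20, and Mertk and Gas6 stay within 0.1 of 0.

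At 4 months the differences between white and grey matter changed with the library that stands apart. Axl was higher in white matter by 0.11 with all 8 libraries and by 0.91 ± 0.40 without that library, with an unadjusted p of 0.0497 and an adjusted p of 0.920 in edgeR. DESeq2 without that library gave 0.93, with an unadjusted p of 0.0405 and an adjusted p of 0.99963. Mertk differed by -0.76 and 0.04, Gas6 by -0.65 and 0.05, and Pros1 by -0.56 and 0.24, in that order of fits. No member was called by edgeR, and the shares of all genes called were 0% in the fits of 8 and of 7 libraries and of the young libraries alone. Choroid plexus markers were higher in young white matter, at 2084 and 5453 against 186.8 and 26.7 CPM in young grey matter, and neutrophil markers lower, at 394.7 and 1123 against 5474 and 2788 CPM. Monocyte, border-associated macrophage and endothelial sums were also lower without overlap, with 6 of 12 endothelial markers at 0 in the first young white matter library. Homeostatic microglia markers were lower too, at 3485 and 14186 against 20959 and 17161 CPM. Oligodendrocyte and oligodendrocyte precursor sums were higher without overlap. The part of these cells in the differences was not tested. Without that library the young white matter group is a single library, assumed to vary like the rest. Without its partner instead, edgeR called all 5 members, with Tyro3 at 6.36 and the others at -1.84 to -2.68, in a fit that called 23.6% of all genes.

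Age in white matter moved Axl in the same direction as region. Axl was higher at 21 than at 4 months by 2.83 ± 0.81 with all 8 libraries (edgeR adjusted p = 0.615) and by 2.03 ± 0.44 without the first young white matter library (adjusted p = 0.842), which called 0.00571% of genes, and the 4 white matter libraries alone called 0%. DESeq2 called Axl in both cases, at 2.81 (adjusted p = 0.0235) with all 8 libraries, where 0.383% of genes were called higher, and at 2.02 ± 0.45 (adjusted p = 0.0049) without that library, where 0.207% were. In CPM the groups did not overlap, as for 19.8% of genes in the higher direction. Mertk, Gas6 and Pros1 went from 0.61, 0.51 and 0.58 with all 8 libraries to -0.20, -0.20 and -0.22 without that library, so their direction rested on it. Markers of vessel cells were also higher at 21 months in white matter. Endothelial markers summed to 15.3 and 50.7 CPM in young and 85.9 and 196.9 in aged libraries, and pericyte and smooth muscle markers to 12.4 and 597.8 against 751.0 and 1386 CPM. Of the 12 endothelial markers 6 were at 0 in the first young and 2, Cldn5 and Tie1, in the first aged library, and of the 10 pericyte markers 4 in the first young library. Monocyte markers, at 54.5 and 178.9 against 248.6 and 207.1 CPM, and fibroblast markers, at 0.363 and 21.3 against 22.2 and 23.8 CPM, were higher too, and oligodendrocyte markers were lower. The part of these cells in the Axl change was not tested. Without its partner instead, edgeR called all 5 members, with Axl at 4.77, in a fit that called 25.1% of all genes.

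In grey matter Axl was higher at 21 than at 4 months by 0.57 (edgeR adjusted p = 1 with all 8 libraries and 0.938 without the first young white matter library). Its grey matter groups did not overlap, which 17.2% of genes shared in the higher direction. Endothelial markers were higher there as well, at 110.1 and 107.5 CPM in aged against 52.0 and 71.7 in young libraries, as were pericyte markers, at 1120 and 1329 against 148.1 and 950.2 CPM, with none of either list at 0. Sums of astrocyte, fibroblast, neuron, oligodendrocyte precursor and choroid plexus markers were higher without overlap too. Border-associated macrophage markers were lower, at 789.3 and 884.5 against 1032 and 912.3 CPM. Homeostatic microglia markers were lower as well, at 13721 and 16467 against 20959 and 17161 CPM. Their part in the Axl change was not tested. Pros1 was lower by 0.41, with 134.6 and 124.7 CPM at 4 months and 87.0 and 107.7 at 21 months, a lack of overlap in the lower direction that 17.3% of genes shared. Mertk and Gas6 each differed by -0.07, and their groups overlapped. Tyro3, at 20 and 7 counts in young and 1 and 2 in aged grey matter, was lower by -2.66 ± 2.03 with all 8 libraries (edgeR adjusted p = 1). Without the first young white matter library it was lower by -2.63 ± 1.11, with an unadjusted p of 0.0434 and an adjusted p of 0.938. Its groups did not overlap either. No member was called, and 0% of genes were in the 3 edgeR fits. The age change of Axl in white matter exceeded that in grey matter by 2.26 ± 1.09 with all 8 libraries and by 1.46 ± 0.53 without the first young white matter library. The latter had an unadjusted p of 0.0251 and an adjusted p of 0.99995 in edgeR, with 0% of genes called by either fit. Without the second young white matter library edgeR called Axl at 4.21, Mertk at 2.60 and Pros1 at 2.92, with 13.6% of all genes. The age change of Axl was larger in white than in grey matter whichever library was left out, by 1.46 to 4.21, while its size and its call depended on that library.

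Gas6, the ligand shared by all the receptors, stood at 16.7 and 70.7 CPM in young white matter, 80.1 and 58.1 in young grey matter, 40.9 and 84.4 in aged white matter, and 60.2 and 71.5 in aged grey matter. The aged white matter libraries, which held the highest Axl, differed 2.06-fold from each other in Gas6 and held its lowest and highest levels among the 7 libraries. Pros1 stood at 23.6 and 151.8, 134.6 and 124.7, 139.8 and 123.4, and 87.0 and 107.7 CPM in the same order of groups. Gas6 counts per 100 Pros1 counts were 70.8 and 46.6, 59.5 and 46.6, 29.3 and 68.4, and 69.2 and 66.3. In grey matter the aged libraries were above the young ones in this balance, and in the other 3 comparisons the groups overlapped. The share of all genes that separate so against Pros1 was not computed, so this lack of overlap says little by itself. The lowest value was in the first aged white matter library.

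Tyro3, the TAM receptor best known from neurons and myelinating glia, was nearly absent from 7 libraries. Its counts were 560 and 10 in young white matter, 20 and 7 in young grey matter, 6 and 9 in aged white matter, and 1 and 2 in aged grey matter. The first young white matter library stood at 203.5 CPM and the other 7 at 0.198 to 3.49 CPM. That library also held the 65384 CPM of oligodendrocyte markers, and the part of those cells in the Tyro3 level was not tested. In that library Axl, Mertk, Gas6 and Pros1 were each below every other library. DESeq2 on all 8 libraries called Tyro3 higher in white matter at 4 months, at 5.47 (adjusted p = 0.00384), where it called 3.16% of genes higher, and lower with age in white matter, at -5.83 (adjusted p = 0.00236), where it called 2.19% lower. In CPM, the white matter groups did not overlap for Tyro3 with age, as for 15.4% of genes in the lower direction. On all 8 libraries edgeR gave 5.41 for region at 4 months (adjusted p = 0.479) and -5.79 for age in white matter (adjusted p = 0.615), and called neither. Without the first young white matter library these differences were 0.10 and -0.47 in edgeR, and 0.11 and -0.49 in DESeq2. Among the other libraries, the 95% Poisson interval of the first young grey matter library, 2.13 to 5.39 CPM, lay above those of the aged grey matter libraries, 0.005 to 1.10 and 0.068 to 2.02 CPM. That of the second young grey matter library, 0.515 to 2.64 CPM, overlapped both.

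**Figure D4:**
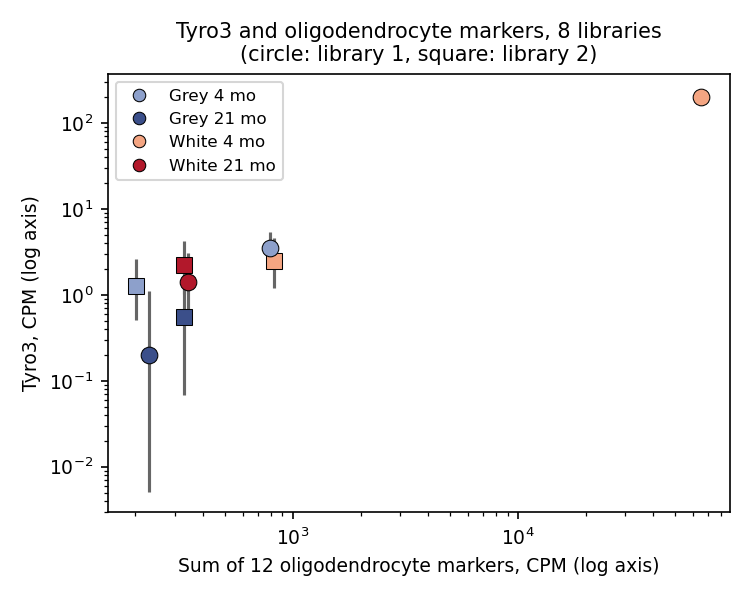
Tyro3 level in CPM against the summed CPM of 12 oligodendrocyte markers (both log axes), one point per library, with 95% Poisson intervals of the Tyro3 count. The first young white matter library stands alone at 203.5 and 65384 CPM, and the other 7 lie below 3.5 CPM of Tyro3 and at 201.5 to 823.3 CPM of the markers.

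The wider pathway was read from 8 lists of 69 other genes, of which 61 passed the filter of the fit of all 8 libraries. In that fit and in the fit without the first young white matter library, edgeR called 0 of them in any comparison, and 0 to 6 of the 61 (0% to 9.84%) had an unadjusted p under 0.05 with all 8 libraries, against 0.733% to 8.91% of all genes. Of genes named after their values were seen, DESeq2 on all 8 libraries called Ptk2, a focal adhesion kinase, higher in white matter at 4 months (3.39, adjusted p = 0.0164). It called 3.16% of all genes higher there. With age in white matter it called Lgals3, a galectin reported as a Mertk ligand, higher (2.72, adjusted p = 0.0133) and Adgrb1, a phosphatidylserine receptor, lower (-6.27, adjusted p = 0.00108). Of all genes it called 0.383% higher and 2.19% lower with age. Ptk2 stood at 135.6 CPM in the first young white matter library and 12.8 in its partner, and Adgrb1 at 72.0 and 2.76. Without the first young white matter library DESeq2 called none of the 8 lists' genes in these comparisons, and Lgals3 differed by 2.35 (adjusted p = 0.374). In the fit of the aged libraries alone 57 were tested, 0 were called higher and 1 was called lower in white matter, against 0.591% of all genes called lower. At an unadjusted p under 0.05 there were 11 of 57 (19.3%), against 11.4% of all genes. The median log2 difference over these 57 was 0.07, and that over all genes was 0.0066. Maf was the gene called, a transcription factor of macrophages that is tied to Mertk expression. Its CPM were 163.4 and 185.5 in aged white matter, against 307.4 and 368.4 in aged grey matter. Maf was lower by -0.96 ± 0.167 (edgeR adjusted p = 0.0183). At 4 months white matter held 42.9 and 195.4 CPM of it, against 322.8 and 311.4 in grey matter. Maf is also one of the 12 border-associated macrophage markers, whose sum was lower in the same libraries. Maf itself is counted in that sum, so the sum is not a separate measure of those cells. The part of those cells in the Maf difference was not tested.

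By role, none of the 2 tested other ligands, the 3 tested genes of the vitamin K cycle that modifies Gas6 and protein S, the 5 shedding genes and the 7 genes of phosphatidylserine exposure passed in the aged fit. None of 11 tested other phosphatidylserine receptors and bridges, 17 engulfment signalling genes and 6 genes of the feedback on cytokine receptors passed either. That fit called 0.985% of all genes higher and 0.591% lower, so a lack of calls in lists this short says little about these roles. The nearest to the threshold, named after their values were seen, were Rhbdf2, a partner of the sheddase Adam17, at 0.86 (edgeR adjusted p = 0.0991), and Stab1, another phosphatidylserine receptor, at -0.74 (adjusted p = 0.115). Stab1, like Maf, is also one of the 12 border-associated macrophage markers, and the part of those cells in its difference was not tested. It stood at 171.7 and 243.6 CPM in aged white matter and 311.8 and 378.8 in aged grey matter. Maf and Stab1 made up most of the sum of these markers, so that sum largely restates their own differences. Trem2, a lipid receptor of microglia, was at 0.59 (adjusted p = 0.182).

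**Figure D5:**
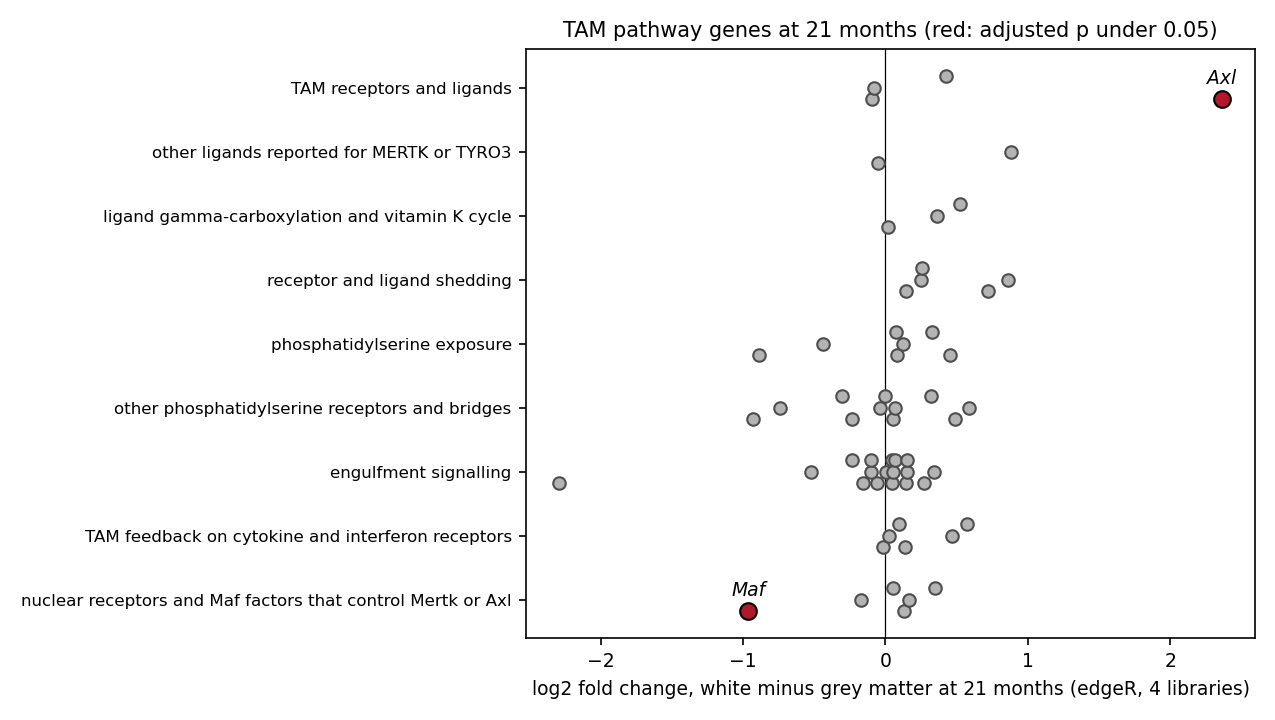
Log2 fold change in white against grey matter at 21 months (edgeR, 4 libraries) of each tested gene of the TAM list and the 8 other pathway lists, one row per list. Axl at 2.36 and Maf at -0.96 are the genes in red, with an adjusted p under 0.05, and the medians of the lists lie between -0.0015 and 0.41.

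Genes that followed Axl were ranked by the root mean square difference of log2 CPM, each gene centred on its own mean over the 8 libraries, among 8882 genes. The closest were Cacna1a, a calcium channel subunit, at 0.208, Nes, the filament protein nestin, at 0.306, St8sia6, a sialyltransferase, at 0.336, Rab7b, a small GTPase, at 0.375, and Gas2l3, a cytoskeletal linker, at 0.423. Cacna1a stood at 54.2 and 41.5 CPM in aged white matter and at 2.18 to 12.3 CPM in the other 6 libraries. St8sia6 stood at 159.7 and 102.8 CPM and at 3.27 to 31.4 CPM in the others. Ranked genes needed a mean of at least 50 counts only in their highest group. In the first young white matter library these 5 stood at 1.45 to 3.27 CPM, so their likeness there rested on few counts. Of these 5, 4 were again among the closest 5 without the first young white matter library.

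Among the 5 genes closest to Mertk were Mtr, which encodes methionine synthase, at 0.078, Pik3cg, a lipid kinase subunit, at 0.091, Slc16a6, a transporter, at 0.103, and Abca9, a lipid transporter family member, at 0.104. Like Mertk, Mtr was low in the first young white matter library, at 11.3 CPM, and between 71.7 and 92.3 CPM in the other 7. None of the 5 was among the closest without that library, when Frmd4b, Numb, Tjp1, Mettl14 and Ncapd3 took their place. The likeness to Mertk thus rested on that library.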

How the data were processed

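Per the submitters' processing notes the authors used Partek and DESeq2, in versions and roles not given in the sources used here, nor are the aligner, build, annotation and strand. The authors deposited estimated counts per gene, of which 17.9% to 19.7% of the values above 0 were not whole. These were rounded. The deposited normalised signal equals count times 1 factor per library and served 1 alternative.

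Genes were kept with filterByExpr (16237 of 51810), scaled by TMM, and fitted as 4 group means over 8 libraries with edgeR 4.0.16 (quasi-likelihood, robust, 4 residual degrees of freedom) in R 4.3.3. Genes with a Benjamini-Hochberg adjusted p under 0.05 were called. SEs were derived from the F statistic. DESeq2 1.42.0 and limma 3.58.1 were alternatives, as were RLE scaling, library totals, no filter, a replicate block, the compared libraries alone and leaving out each library. DESeq2 without the first young white matter library was added after seeing the data. Ratios used counts plus 0.5. Exon lengths came from GENCODE M21. The edgeR step was tested on counts simulated from the aged libraries alone, and the fit of all 8 libraries was not simulated. The ratio step was checked on made-up ratios with a known shift.

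The members, lists and tests were chosen with earlier results of these data known. The text names the 5 members, pathway genes called by edgeR in any of the 3 fits, and the 5 genes closest to Axl and to Mertk (at least 50 counts on average in their highest group), leaving out predicted models. Other pathway genes were named after their values were seen. One gene close to Mertk is not reported here.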

Additional observations from a re-analysis of the deposited data

How the results depend on the processing

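The Axl to Mertk ratio kept its direction in every comparison under all alternatives run. Leaving out 1 library at a time it ranged from 2.13 to 2.73 (region, 21 months), 0.67 to 1.17 (region, 4 months), 1.91 to 2.51 (age, white matter), 0.45 to 0.95 (age, grey matter), 1.53 to 1.83 (region, both ages) and 1.21 to 1.81 (difference of age changes), the last bounds being without the first and second aged white matter library. The number of TAM genes called, 0 with all 8 libraries, was 1 (Axl) for region at 21 months with no filter, with voom quality weights, with the compared libraries alone and with DESeq2 without the first young white matter library. On all 8 libraries, DESeq2 and the fit with no filter called 515 of 14663 and 1113 of 32865 genes for region at 4 months. For age in white matter they called 369 of 14348 and 963 of 32865. The number of TAM genes called was 1 (Tyro3) for region at 4 months with DESeq2 and with no filter. For age in white matter it was 2 (Axl and Tyro3) with each of these, and 1 (Axl) with DESeq2 without that library. Leaving out each library gave 0 to 5, 0 to 5 and 0 to 3 called for region at 4 months, age in white matter and the difference of age changes. The highest values came without the second young white matter library, which leaves the one that stands apart as its group. The cause of the other changes was not tested.

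Signs of small differences turned. For region at 4 months Axl, 0.11, was -0.35 in limma on the deposited values and -0.27 with voom weights, and -1.84 to 0.91 leaving out each library. There Mertk ran from -2.68 to 0.039, Gas6 from -2.08 to 0.054 and Pros1 from -2.49 to 0.24, and DESeq2 without the first young white matter library gave 0.053, 0.069 and 0.26. For age in white matter Mertk ran from -0.20 to 2.52, Gas6 from -0.20 to 1.93 and Pros1 from -0.22 to 2.50, with -0.21, -0.21 and -0.23 in that DESeq2 fit. For the difference of age changes Mertk ran from -0.12 to 2.60, Tyro3 from -4.07 to 2.16 and Gas6 from -0.13 to 2.01, with -0.15, 2.20 and -0.16 in that fit. Gas6 for region at 21 months ran from -0.68 to 0.33. For age in grey matter Mertk ran from -0.28 to 0.15 and Gas6 from -0.28 to 0.17, and library totals gave 0.045 and 0.090. By Pearson correlation 2 of the 5 genes closest to Axl and 2 of those closest to Mertk were shared, and 0 of those closest to Mertk without the first young white matter library.

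Same-numbered libraries deviated together with correlations of -0.141 to 0.415. White and grey matter of the same age gave 0.415 at 4 months and 0.056 at 21 months. These values do not settle whether same-numbered libraries of an age belong together. The labels state no pairing, so the numbers were not taken to pair them. With the number as a replicate block edgeR called 0 TAM genes in each comparison, and Axl for region at 4 months was -0.047. Outside the first young white matter library Tyro3 had 1 to 20 counts, so its differences there are imprecise.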
